A study of Phalaenopsis equestris with 4 samples.

Results

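The contigs described here are the abundant flower-preferential transcripts of Phalaenopsis equestris, a moth orchid. They were chosen from the deposited expression table as the contigs with at least 100 FPKM in flower whose flower value, with 1 added, was at least 5 times that of root, of stem and of leaf, also with 1 added. Contigs that the authors' tables name as heat shock or R genes, the usual term for plant disease resistance genes, were left out. This gave 86 members of 221878 contigs. FPKM usually means fragments counted per length of transcript and per size of library, so levels of different contigs can be set beside each other. A contig is a transcript sequence that the authors assembled from the reads. In its name the component, the Trinity gene and the isoform follow each other, so that c155779_g1_i1 and c155779_g1_i2 are isoforms of 1 gene and c155779_g8_i1 is another gene of the same component.

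The study sequenced total RNA of flower, root, stem and leaf, with 1 library per tissue, from plants labelled as 3 years old. The species is the same in all 4 libraries, and the labels give no treatment, cultivar, flower stage or floral organ. No tissue has a replicate, so no test across tissues is possible, no difference below has a p-value, and differences between plants or libraries cannot be told apart from those between tissues. In a bulk library more cells of a type and more RNA per cell cannot be told apart. Since the selection used the values of all 4 libraries, the high flower level and the gap to the other tissues are descriptions of the members and not findings about them.

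An orchid flower has sepals and petals, one petal being modified into the lip, around a column in which male and female organs are fused, and its pollen is packed into pollinia. In flowering plants, organ identity is set by MADS-box transcription factors. Transcripts known to reach high levels in flowers more than in leaves, stems or roots include those for petal pigments, scent, cuticle lipids, nectar and pollen walls. None of the 86 contigs is paired with a gene name, protein or sequence in the files used here, so no member could be placed in any of these groups, and the flower label could not be checked against marker genes.

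The sums of FPKM were 695751 in flower, with root at 895717, stem at 684575 and leaf at 7179830, so they differ by more than 10-fold between stem and leaf. Read totals were not part of the deposited tables that were analysed. Whether the deposited values had already been scaled between libraries was not stated either. Among Trinity genes of a single contig the ratios of leaf values to those of another library peaked at the fractions that whole reads would give, and from these peaks 1 leaf read had the FPKM value of 27.9 flower reads, 16.6 root reads or 26.5 stem reads on the same contig. If values do count whole reads, a low or zero value in leaf rests on the fewest reads. The median leaf value above 0 was 4.53 FPKM over all contigs, and 21 of the 86 members were listed at 0 in leaf.

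Members ranged from 100.3 to 20372 FPKM in flower, with a median of 241 FPKM. The other tissues were at a median of 0.192 FPKM in root, 3.29 FPKM in stem and 4.84 FPKM in leaf, and at most 75.2, 138 and 137 FPKM. Together the 86 members made up 9.02% of the summed flower FPKM, against 0.0361% of the root sum, 0.168% of the stem sum and 0.0207% of the leaf sum. The leaf sum is mostly component c157498, and without that component the share was 0.0859% in leaf and 9.11% in flower, which places leaf above root. Flower levels were unevenly spread. The 10 highest members held 65.2% of the members' flower sum, and c118652_g1_i1 alone held 32.5%. Of the rest, 13 members lay between 500 and 1000 FPKM, 23 between 200 and 500 FPKM and 40 between 100 and 200 FPKM. Members took 3 of the 10 highest places among all flower contigs, 11 of the 50 highest and 23 of the 100 highest.

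**Figure D1:**
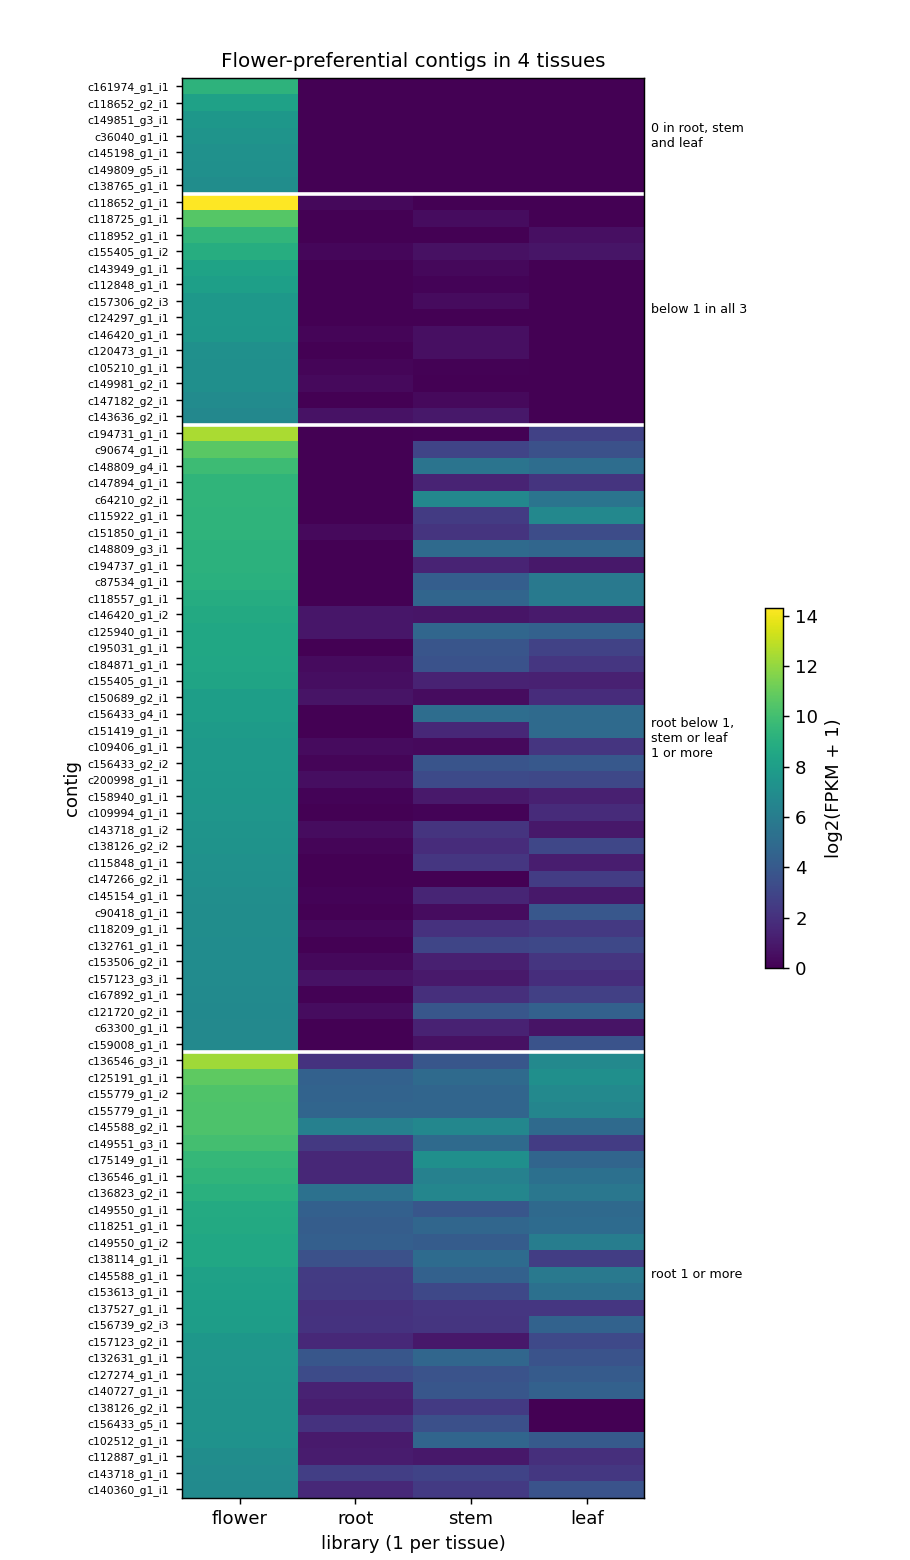
Level of each of the 86 members (rows) in the 1 library of each tissue (columns), as log2(FPKM + 1) by colour, grouped by level outside flower and ordered by flower level within a group. The flower column is the brightest in every row, and root is dark in the 3 upper groups.

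Of the 963 contigs with at least 100 FPKM in flower, 88 met the fold rule, which is 9.14% of them and 0.0397% of all contigs. They are the 86 members and a pair left out by name. That pair belongs to HSP20, the family of small heat shock proteins that bind unfolding proteins. HSP20_PEQU_14369, on c116508_g1_i1, was at 391 FPKM in flower, with root at 2.40, stem at 7.31 and leaf at 0.862, and HSP20_PEQU_23676, on c3549_g1_i1, was at 122 FPKM in flower, with root at 3.65, stem at 3.08 and leaf at 7.69. No R gene contig met the rule. On the values as deposited, the same rule turned to the other tissues gave 43 contigs in root, 19 in stem and 560 in leaf. These are 5.9%, 3.21% and 25.8% of the contigs with at least 100 FPKM there. The counts rest on the deposited leaf scale, and whether the values were already scaled between libraries was not stated.

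The level threshold cut through a continuous range. Just inside it were c143636_g2_i1, at 100.3 FPKM in flower, with root at 0.594, stem at 0.917 and leaf listed at 0, c159008_g1_i1, at 105 FPKM in flower and up to 11.5 FPKM elsewhere, and c63300_g1_i1, at 105 FPKM in flower and up to 1.58 FPKM elsewhere. Just outside it c128181_g4_i1 and c141628_g1_i1 were both at 99.98 FPKM in flower, with at most 14.3 and 6.48 FPKM elsewhere, and c144457_g1_i2 was at 99.8 FPKM with at most 7.02. At the fold threshold, c145588_g1_i1 was inside at 5.14-fold over leaf, c121720_g2_i1 at 5.22-fold over leaf and c175149_g1_i1 at 5.35-fold over stem. Outside were c147406_g4_i1 at 4.84-fold, c137603_g1_i1 at 4.78-fold and c128181_g5_i1 at 4.71-fold. All folds are on the FPKM + 1 scale, which understates the difference for low values.

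**Figure D2:**
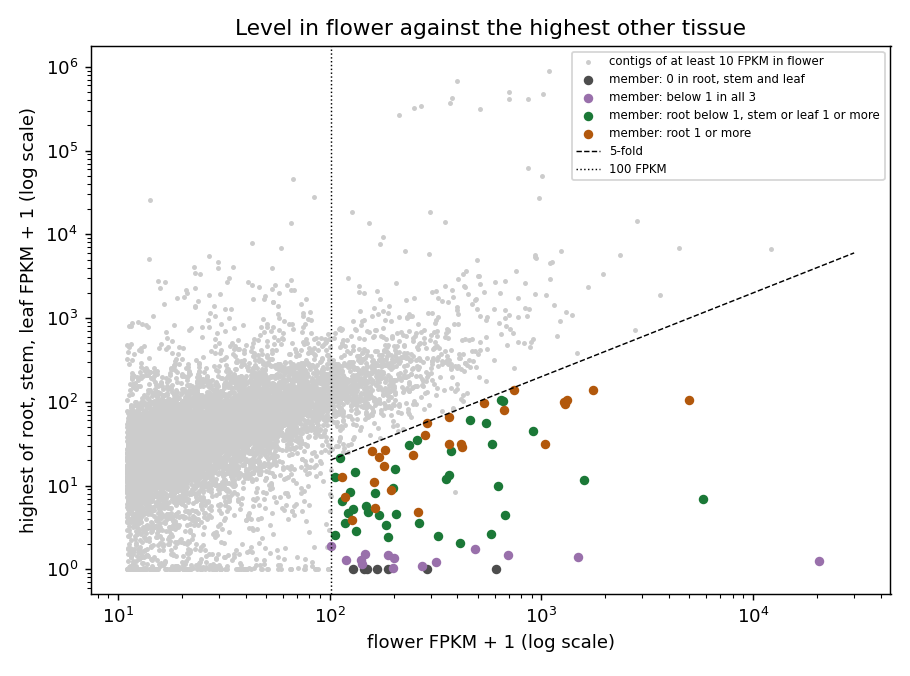
Flower level (x axis) against the highest of root, stem and leaf (y axis), both as FPKM + 1 on log scales, for contigs of at least 10 FPKM in flower (grey) and the 86 members (coloured by their level outside flower). Members fill the corner right of 100 FPKM and below the 5-fold line, with c118652_g1_i1 far to the right at 20372 FPKM; the grey points in that corner are the 2 HSP20 contigs.

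Across members the gap between flower and the next tissue ran from 2.36 to 13.98 on the log2(FPKM + 1) scale, with a median of 4.82, a 28.3-fold difference. It reached 10-fold in 67 members, 100-fold in 24 and 500-fold in 4. The widest gap was that of c118652_g1_i1, at 20372 FPKM in flower, 0.261 in root and listed at 0 in stem and leaf. It was followed by c118725_g1_i1, at 1485 FPKM in flower, 0.416 in stem and listed at 0 in root and leaf. In c194731_g1_i1, the third most abundant contig of the flower library, flower was at 5815 FPKM, leaf at 5.94 and stem at 0.073, and root was listed at 0. Then came c161974_g1_i1, at 606 FPKM in flower and listed at 0 in the rest, and c118952_g1_i1, at 691 FPKM in flower, 0.479 in leaf and listed at 0 in root and stem. All 5 contigs were below 6 FPKM in every tissue but flower.

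Outside flower the members fell into 4 groups by level, drawn after the values were seen and used only to describe them. In 7 members root, stem and leaf were all listed at 0. In 14 members all 3 were below 1 FPKM without all being 0. In 38 members root was below 1 FPKM but stem or leaf was at least 1 FPKM, and in 27 members root too was at least 1 FPKM. Of the other 877 contigs of at least 100 FPKM in flower, 8.21% fell in the third group, 91.8% in the fourth and none in the first 2, from which the rule bars them. The median flower level was 166, 199, 220 and 287 FPKM in these groups in the same order. Their shares of the members' flower sum were 2.65%, 39.6%, 29.4% and 28.4%, the second of which is mostly c118652_g1_i1.

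The 7 members listed at 0 outside flower spanned 127 to 606 FPKM in flower. Besides c161974_g1_i1 they were c118652_g2_i1 at 286 FPKM, c149851_g3_i1 at 187, c36040_g1_i1 at 166, c145198_g1_i1 at 149, c149809_g5_i1 at 144 and c138765_g1_i1 at 127 FPKM. Each was the only contig of its Trinity gene. None of the other 877 contigs at 100 FPKM or more in flower was at 0 in all 3 tissues, which the rule itself fixes.

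The 14 members with traces outside flower had at most 0.594 FPKM in root, 0.917 in stem and 0.734 in leaf. In 12 of them leaf was listed at 0, in 8 root and in 3 stem. After c118652_g1_i1, c118725_g1_i1 and c118952_g1_i1 the most abundant were c155405_g1_i2, at 482 FPKM in flower, with root at 0.181, stem at 0.532 and leaf at 0.734, c143949_g1_i1, at 315 FPKM in flower and 0.232 in stem, and c112848_g1_i1, at 271 FPKM in flower and 0.092 in stem. A wide gap at a lower level was that of c124297_g1_i1, at 198 FPKM in flower against 0.031 in stem and 0 listed in root and leaf. Root was the next highest tissue in 3 of the 86 members, all in this group, at 0.261 FPKM in c118652_g1_i1, 0.275 in c149981_g2_i1 and 0.145 in c105210_g1_i1, whose flower levels were 20372, 139 and 141 FPKM.

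How much a leaf value of 0 says could be set for 10 members that were at 0 in leaf, above 0 in root or stem and the single contig of their Trinity gene. If values stand for whole reads at the spacing found above, the value in root or stem was at least 1 read. This gives an upper limit on the FPKM value of 1 leaf read. At its flower level the contig would then have had at least 4712 leaf reads for c118652_g1_i1 and 241 for c124297_g1_i1. This lower limit was 135 for c118725_g1_i1, 111 for c112848_g1_i1 and 96.7 for c105210_g1_i1, with a median of 63.6 over the 10. It was only 30.4 for c149981_g2_i1, 14.8 for c147182_g2_i1, 10.8 for c120473_g1_i1 and 10.2 for c143636_g2_i1. The lowest of the 10 was c156433_g5_i1, at 160 FPKM in flower, 3.26 in root and 10.2 in stem, for which this limit is only 2.97 leaf reads, so its 0 in leaf says little. For the 7 members at 0 in all 3 tissues no such limit could be set.

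The largest group, with 38 members, was below 1 FPKM in root and reached 1 FPKM in stem or leaf. Root was listed at 0 in 20 of them and reached at most 0.832 FPKM, while stem ranged up to 102 FPKM with a median of 2.97 and leaf up to 103 FPKM with a median of 6.07. Leaf was above stem in 24 of the 38 and stem above leaf in 14. Both stem and leaf reached 10 FPKM in 9 members, and in 6 of these root was listed at 0. The clearest was c64210_g2_i1, at 661 FPKM in flower, with stem at 102, leaf at 45.1 and root listed at 0. Likewise c148809_g4_i1 was at 916 FPKM in flower, 43.9 in stem and 34.1 in leaf, c148809_g3_i1 at 584, 30.5 and 25.9 FPKM, and c156433_g4_i1 at 257, 33.7 and 29.6 FPKM, all listed at 0 in root. For c87534_g1_i1 the values were 544 FPKM in flower, 18.6 in stem and 54.6 in leaf, and for c118557_g1_i1 they were 459, 24.3 and 59.7 FPKM, also with 0 listed in root. As deposited, stem and leaf of these 6 contigs lay within a factor of 3 of each other. This rests on the leaf scale. With library sums set equal, stem was above leaf in all 6, for example at 103.5 against 4.37 in c64210_g2_i1 and at 18.9 against 5.29 in c87534_g1_i1. With median-of-ratios factors leaf stayed above stem in c87534_g1_i1, at 30.8 against 18.6, and in c118557_g1_i1, at 33.7 against 24.4. With c157498 left out of the sums, leaf was at 21.7 against 18.7 in c87534_g1_i1, but at 23.7 against 24.5 in c118557_g1_i1. The rest of the 6 had stem above leaf in every setting.

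Within the same group, some of the 24 contigs with leaf above stem had a wide gap between these tissues. One was c115922_g1_i1, at 640 FPKM in flower, with leaf at 103, stem at 4.53 and root listed at 0. Others were c151419_g1_i1, at 235 FPKM in flower, 29.5 in leaf and 1.96 in stem, and c90418_g1_i1, at 130 FPKM in flower, 13.7 in leaf and 0.404 in stem. These gaps narrow with library sums set equal, which divides leaf by 10.3. Leaf and stem were then at 9.96 and 4.61 in c115922_g1_i1, 2.86 and 1.995 in c151419_g1_i1 and 1.33 and 0.411 in c90418_g1_i1. They narrow less with c157498 left out of the sums, where the same values were 40.9 and 4.56, 11.8 and 1.98, and 5.46 and 0.407. With median-of-ratios factors c115922_g1_i1 was at 58.0 in leaf and 4.54 in stem. As deposited, stem was above leaf in 14 contigs of the group. Among them were c195031_g1_i1, at 366 FPKM in flower, 12.4 in stem and 6.19 in leaf, and c184871_g1_i1, at 352 FPKM in flower, 11.1 in stem and 3.74 in leaf. Several members were low in both, such as c147894_g1_i1, at 670 FPKM in flower, 1.70 in stem and 3.51 in leaf, and c194737_g1_i1, at 577 FPKM in flower, 1.66 in stem and 0.862 in leaf. The highest of the group in flower was c194731_g1_i1, at 5815 FPKM and described above, followed by c90674_g1_i1, at 1593 FPKM in flower, with stem at 6.77, leaf at 10.8 and root listed at 0.

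The 27 members with at least 1 FPKM in root held the narrower gaps, from 2.36 to 5.74 with a median of 3.65 on the log2(FPKM + 1) scale. Stem was above root in 23 of them and leaf above root in 21. In 10 members root reached 10 FPKM, and in 9 all of root, stem and leaf did. The highest level outside flower in all 86 members was that of c175149_g1_i1, at 743 FPKM in flower, with stem at 138, leaf at 24.2 and root at 2.05. It was followed by c125191_g1_i1, at 1748 FPKM in flower, with leaf at 137, stem at 30.0 and root at 20.5. The most abundant contig of the group, c136546_g3_i1, was at 5002 FPKM in flower, with leaf at 105, stem at 13.0 and root at 3.34. Root levels were highest in c145588_g2_i1, at 1281 FPKM in flower, with root at 75.2, stem at 98.3 and leaf at 30.4, and in c136823_g2_i1, at 536 FPKM in flower, with root at 39.1, stem at 94.9 and leaf at 50.4. With 1034 FPKM in flower, c149551_g3_i1 had 30.5 FPKM in stem against 4.10 in root and 4.92 in leaf. With 260 FPKM in flower, c137527_g1_i1 was nearly even in the rest, with root at 3.15, stem at 3.88 and leaf at 3.77.

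The order of root, stem and leaf was bounded by the selection but not set by it. Leaf was the next highest tissue after flower in 41 members, stem in 35 and root in 3. Leaf was the highest of the 3 in 84.2% of the other contigs of at least 100 FPKM in flower, stem in 9.35% and root in 6.5%. All shares of the other contigs given here are as deposited, so only the members' side shows the effect of scaling. The split among members depended on the scaling between libraries: leaf was next in 29 members with median-of-ratios factors, in 9 with library sums set equal and in 26 with the leaf component c157498, which takes most of the leaf sum, left out of the sums. Stem was next in 45, 64 and 49 members in these settings. Root was the lowest of the 3, without a tie, in 52 members as deposited and in 47, 39 and 50 under the same scalings. These 52 are 60.5% of members, and root was lowest alone in 68.8% of the 877 other abundant flower contigs. Stem was above root in 67 of the 86 members and in 70.8% of the other abundant flower contigs. Leaf was above root in 61 members and in 91.4% of the others, and above stem in 41 members and in 88.6% of the others. The rule caps the level in each tissue of the members, and part of these gaps follows from it. The median of stem over root was 0.65 on the log2(FPKM + 1) scale in members and 0.59 in the other contigs.

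A value of 0 in root was frequent among the members, with 35 of 86, or 40.7%, against 4.33% of the other contigs of at least 100 FPKM in flower and 22.7% of all contigs. Stem was listed at 0 in 11 members and in 0.912% of these other contigs, and leaf in 21 members and in 0.456% of the other contigs. Over all contigs leaf was at 0 in 71.6% and stem in 20.7%. The low values that the rule requires make such zeros more likely, so these shares describe the members and support nothing. Across the 86 members stem and leaf levels ran together more closely than either did with root: Spearman's rho was 0.799 for stem and leaf, 0.533 for root and stem and 0.430 for root and leaf. With flower it was 0.345 for stem, 0.387 for leaf and 0.125 for root. These are descriptions across contigs, which share libraries and contig lengths and whose levels outside flower are capped by the rule, and contigs are not replicates.

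**Figure D3:**
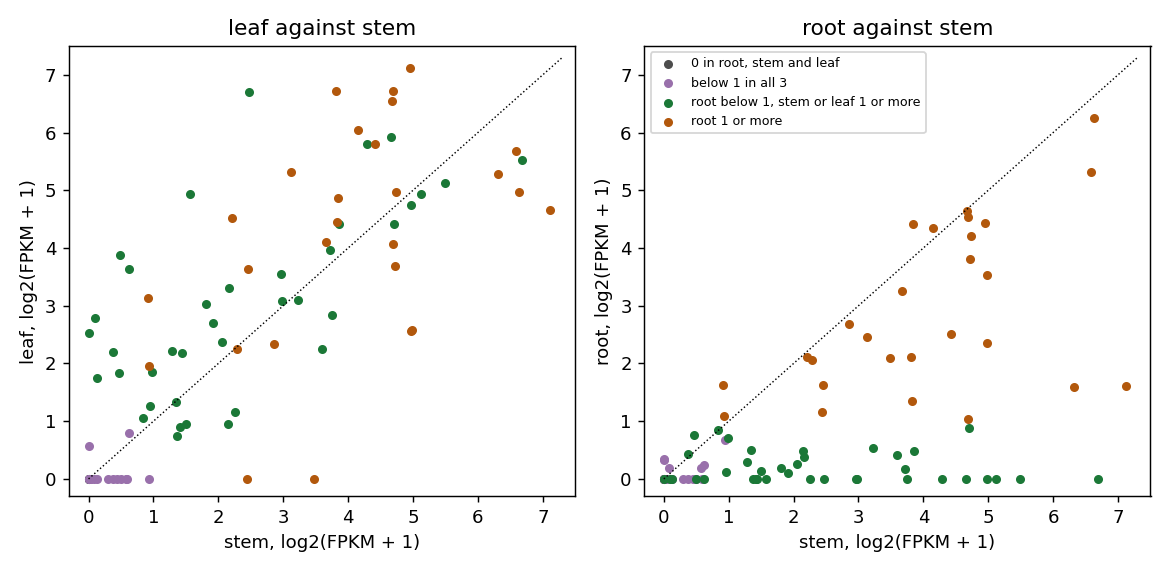
Levels outside flower of the 86 members as log2(FPKM + 1): leaf against stem (left) and root against stem (right), coloured by group, with the dotted line marking equal levels. Leaf and stem scatter to both sides of the line, while root lies below stem in 67 of the 86 members and many points sit on the root axis at 0.

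The 86 members came from 80 Trinity genes in 73 components, and 69 of the 86, or 80.2%, were the single contig of their gene, against 82.3% of the other abundant flower contigs and 69.7% of all contigs. In 6 Trinity genes both of a pair of isoforms were members, and 12 components held more than 1 member. Contigs of 1 component can be pieces or near-identical copies of 1 gene and can share reads, so they are not independent of each other. Pairs of isoforms differed in how alike they were, and the first pair given here was close in all 4 tissues. The isoforms c155779_g1_i2 and c155779_g1_i1 were at 1316 and 1285 FPKM in flower, 22.2 and 24.1 in root, 24.8 and 24.6 in stem and 103.8 and 92.0 in leaf. The isoforms c149550_g1_i1 and c149550_g1_i2 were at 422 and 366 FPKM in flower and 20.2 and 19.4 in root. They were at 13.3 and 16.8 FPKM in stem and differed most in leaf, at 28.2 and 65.0 FPKM. The pair from c155405 was low outside flower in both isoforms: c155405_g1_i1 was at 324 FPKM in flower and at most 1.54 FPKM elsewhere, beside the isoform given above.

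Other pairs differed in their order outside flower, as deposited. In component c136546, c136546_g3_i1 was higher in leaf than in stem, as given above, while c136546_g1_i1 was higher in stem, at 663 FPKM in flower, with stem at 78.6, leaf at 38.0 and root at 2.02. In c145588 the order was also reversed: c145588_g2_i1 was higher in stem, and c145588_g1_i1, at 287 FPKM in flower, had 55.1 in leaf, 20.4 in stem and 4.68 in root. In c138126, c138126_g2_i1 had 163 FPKM in flower and was higher in stem, at 4.43 with 0 listed in leaf. Its isoform c138126_g2_i2 had 162 FPKM in flower and was higher in leaf, at 7.18 against 2.51 in stem. The order in this pair rests on low leaf values, which stand on the fewest reads if values count whole reads. The leaf-high contig of each of these 3 pairs was also higher there when libraries were scaled by the median of ratios, or by sums that omit c157498, where c145588_g1_i1 was at 21.9 in leaf and 20.5 in stem. With the full sums set equal the order turned, at 10.2 in leaf and 13.2 in stem for c136546_g3_i1, 5.34 and 20.7 for c145588_g1_i1 and 0.696 and 2.55 for c138126_g2_i2. The pair from c118652 shared its pattern but not its level, at 20372 FPKM in flower for c118652_g1_i1 and 286 FPKM for c118652_g2_i1.

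Component c156433 was the only one with 3 members, on 3 Trinity genes. Of these c156433_g4_i1, given above, and c156433_g2_i2, at 202 FPKM in flower, with root at 0.130, stem at 12.2 and leaf at 14.6, were below 1 FPKM in root, whereas c156433_g5_i1 had 3.26 FPKM in root and 0 listed in leaf. Its other contigs covered a range of patterns. The isoform c156433_g2_i1 had 79.0 FPKM in flower, with 4.18 to 4.90 in the rest, below the level threshold but past 5-fold. Neither c156433_g1_i2, at 14.4 FPKM in flower and 9.86 in leaf, nor c156433_g1_i1, at 14.0 in flower and 30.4 in leaf, met the fold. The seventh contig, c156433_g3_i1, was at 0.085 FPKM in flower and up to 2.35 FPKM elsewhere.

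**Figure D4:**
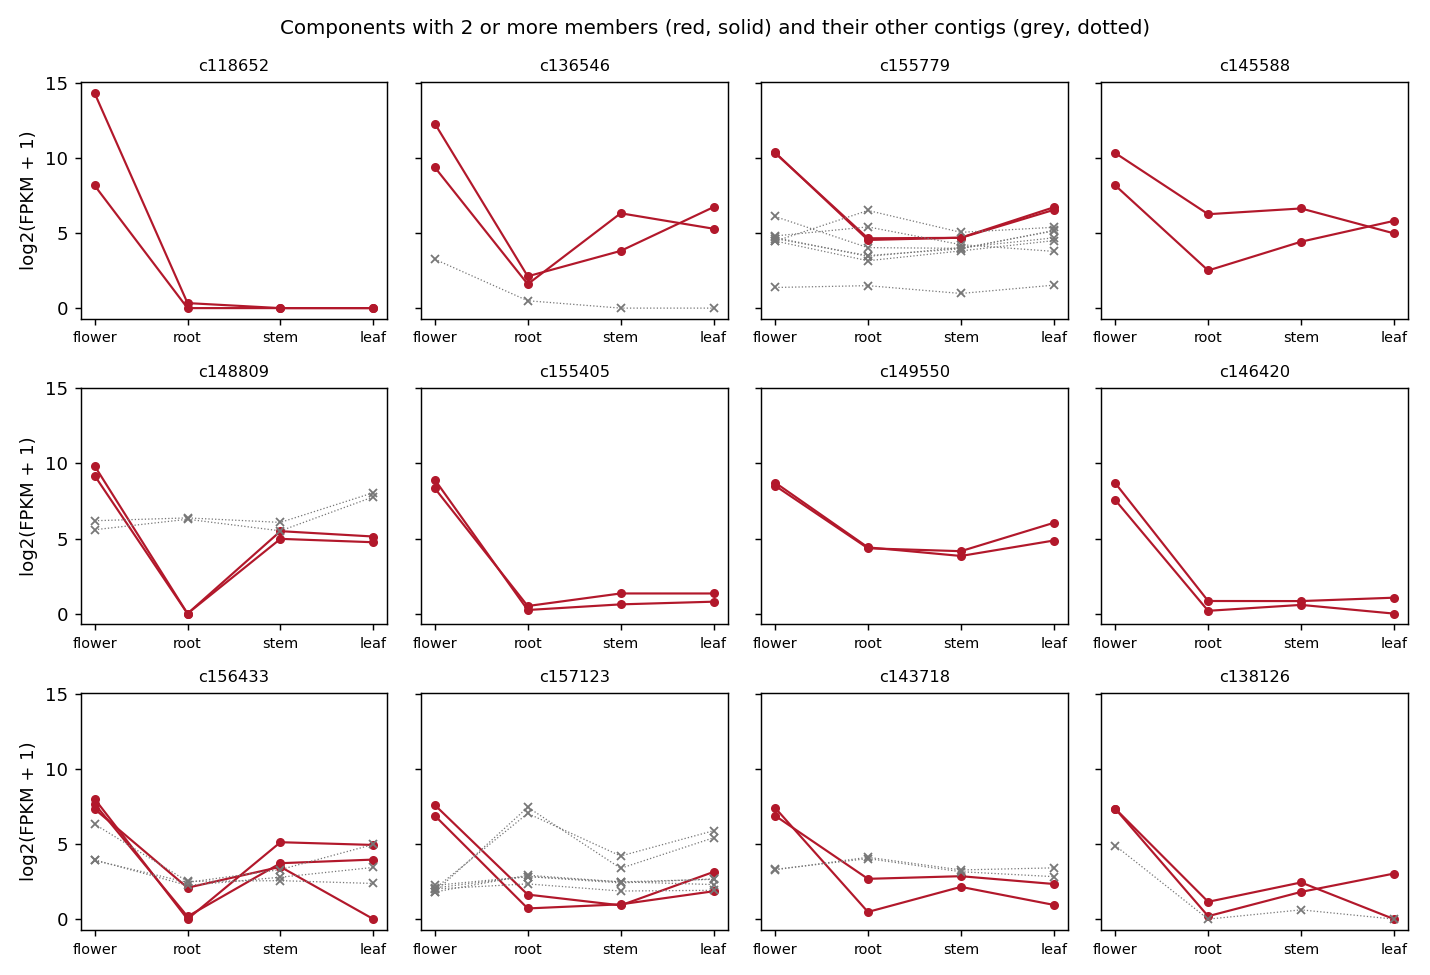
Profiles over flower, root, stem and leaf, as log2(FPKM + 1), for the 12 components with 2 or more members: members in solid red, other contigs with at least 1 FPKM in flower in dotted grey. Members of 1 component share the drop outside flower, but in c136546, c145588, c157123 and c138126 the members' lines cross between stem and leaf. Grey contigs without the drop are present in c148809, c157123, c143718, c155779 and c156433, while those of c136546 and c138126 show it.

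The components of the members held 105 other contigs, of which 65 had at least 1 FPKM in flower. At least 5-fold over each other tissue were 19 of these 65, or 29.2%, against 2.31% of all contigs with at least 1 FPKM in flower. With 1 added, contigs near 1 FPKM in flower cannot reach 5-fold. At 5 FPKM or more in flower, 19 of 46 other contigs passed, against 838 of 17114 among all contigs. The components were chosen for holding a member and their contigs can share reads, so these shares are descriptions and support nothing. These 19 were below the level threshold, and 9 of them were listed at 0 in root, stem and leaf. Component c149809 held 6 of the 9. Next to its member c149809_g5_i1, at 144 FPKM in flower, c149809_g2_i5 was at 86.6 FPKM, c149809_g2_i4 at 58.0, c149809_g6_i4 at 55.8, c149809_g6_i3 at 24.7, c149809_g6_i2 at 19.3 and c149809_g6_i1 at 8.14 FPKM in flower, all with 0 listed in the other tissues. The remaining 12 of the 19 contigs of this component were at most 2.14 FPKM in flower and were above 0 in root and stem. The component c149851 was also mixed: c149851_g1_i1, at 36.9 FPKM in flower and 0.128 in stem, resembled the member, while c149851_g2_i1 was at 5.02 FPKM in flower and 206 in leaf.

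Summing the isoforms of each Trinity gene left 77 of the 80 genes past the rule. The 3 that were lost have an isoform with another pattern. In c137527_g1 the member was joined by c137527_g1_i2, at 404 FPKM in flower, with root at 40.9, stem at 149 and leaf at 268, so that the gene stood at 663 FPKM in flower against 272 in leaf. In c157306_g2 the member c157306_g2_i3, at 199 FPKM in flower, 0.361 in stem and 0 listed in root and leaf, stood beside c157306_g2_i2, at 105 FPKM in flower, with root at 106, stem at 122 and leaf at 128, and the gene sum was 357 FPKM in flower against 199 in leaf. In c156739_g2 the sum was 483 FPKM in flower against 104 in leaf, since c156739_g2_i1 had 157 FPKM in flower and 68.9 in leaf. Its remaining isoform, c156739_g2_i2, was at 78.7 FPKM in flower and 13.0 in leaf, past 5-fold like the member. The way reads were divided between isoforms was not stated in the sources.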

How the data were processed

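Total RNA from flower, root, stem and leaf was made into 1 library per tissue and sequenced on a HiSeq 1500, and the authors assembled contigs of at least 200 nucleotides with Trinity r2013-02-25, per the series' design text and the labels' protocols. The authors deposited FPKM values, as the file headers and the table name say. The submitters' processing notes name edgeR and DESeq without role; the mapper, the FPKM estimator and the divisor were not stated in the sources. Columns were assigned by the tissue in their header.

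From these values the rule was applied to all 221878 contigs with a pseudocount of 1. Ratios of leaf to other values in single-contig Trinity genes were searched for the spacing of 1 to 6 whole reads (windows of 0.02 log2 units). Alternatives were 3 scalings between libraries with flower held fixed, pseudocounts of 0.1 and 5, other levels and folds, isoforms summed, and leaf left out. The search for read values and the median-of-ratios scaling were checked on simulated data. For the rule, planted contigs were built to pass it, so finding them checks only the code. The scalings by sums were not checked in this way. Members, groups and comparisons were chosen with earlier results of these data known. Contigs named were the highest, the widest in gap, the highest per other tissue, those beside each threshold and those of components with 3 or more members; others named to complete a group were chosen after their values were seen. Python 3.11.15, pandas 2.3.3 and scipy 1.17.1 were used.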

Additional observations from a re-analysis of the deposited data

How the results depend on the processing

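All 86 members met the rule in each of the 3 scalings, with flower held fixed. Leaf values were divided by 1.77 (median of ratios), 10.3 (sums set equal) and 2.51 (sums set equal without c157498). Dividing leaf by more than 1 can only widen its gap to flower. In the same order stem was divided by 0.998, 0.984 and 0.994 and root by 0.972, 1.29 and 1.30. Keeping all 86 members was thus largely fixed in advance and supports little. Other contigs then joined the members. The number of contigs past the rule was 102 with the median of ratios, 111 with c157498 left out and 139 with sums set equal, 160 at 50 FPKM or more in flower, 46 at 200 FPKM or more, 937 with no minimum level and 157 without the leaf library. It was 84 with a pseudocount of 5, which lost c145588_g1_i1 and c121720_g2_i1, 67 at 10-fold and 97 at 4-fold. The next tissue depended on scaling: leaf was next in 9 members with sums set equal and in 26 with c157498 also left out, stem in 64 with sums set equal and in 67 without leaf, and root in 5 with median-of-ratios factors, in 6 with sums set equal and in 10 without leaf. The members at 0 in root, stem and leaf numbered 7, and 21 were below 1 FPKM in all 3. Of 25 named members, 25 kept a 5-fold gap in every scaling and with a pseudocount of 0.1. This too was largely fixed in advance, since a lower pseudocount can only widen a gap. No paired analysis was possible because each tissue has 1 library, and for the same reason no replicate could be left out. If values count whole reads, leaf values near 0 rest on the fewest reads.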

Other observations

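A further 71 contigs had at least 100 FPKM in flower and met the 5-fold rule against root and stem but not against leaf, and 12 of them belong to component c157498. Over the other 59 contigs the median level was 160 FPKM in flower, with root at 4.18, stem at 18.9 and leaf at 120, and leaf was above flower in 17. The highest in flower was c86910_g1_i1, at 2766 FPKM in flower, with root at 9.21, stem at 528 and leaf at 714. Next came c139553_g1_i1, at 1660 FPKM in flower, with root at 0.101, stem at 319 and leaf at 2355, and c87099_g1_i1, at 1308 FPKM in flower, with root at 121, stem at 173 and leaf at 1185. A lower flower level was found in c143768_g1_i1, at 896 FPKM in flower, with root at 1.09, stem at 23.7 and leaf at 510. These 4 contigs were named after their values were seen.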
